A study of Mus musculus with 2 samples.

Results

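The genes described here encode the T cell receptor complex and the proteins that carry its signal away from the membrane: the CD3 chains, the co-receptors, the proximal kinases, adaptors and phosphatases, and the regulators that restrain them. Members were taken by gene symbol from a list of 39 names, and every probe whose annotated symbol was on the list was used. Of the 39 genes, 38 had a probe on the array, read by 50 probes on 77 spots, out of 20738 named genes and 55681 probes in all. Lck, the co-receptor-bound kinase that starts the signal, was not analysed here. A probe counted as detected where its signal exceeded the median over all probes of its array, and 37 of the members were detected on at least 1 array, among 13411 detected genes.

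The cells were activated CD4 T helper cells from C57BL/6 spleens. One culture was labelled wild type for Gfi1, the gene of a transcriptional repressor with zinc fingers, and the other was labelled knockout. Both cultures began as naive CD4 T cells from an isolation kit and were kept for 2 days on immobilised antibody to the receptor (TCR-β, 3 µg/ml), with antibody to CD28 (1 µg/ml) and IL-2 (10 ng/ml). Antibodies against IL-4 (5 µg/ml) and against IFN-γ (5 µg/ml) were also in both cultures, so both had been triggered through the receptor described here and no unstimulated sample is part of the comparison. The labels do not give the age of the mice, how many were pooled or how the knockout allele was made. Each RNA was hybridised to 1 one-colour array, so there is no test, no p-value and no spread between cultures, and the SDs below are over spots or probes within the arrays.

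When a peptide on an MHC molecule binds the receptor, paired tyrosines in the CD3 chains are phosphorylated by LCK, and the kinase ZAP-70 docks on them. ZAP-70 then phosphorylates the scaffolds LAT and SLP-76, which gather phospholipase C-γ1, VAV1 and other enzymes and so open the calcium and diacylglycerol branches. CSK, tyrosine phosphatases, CBL ubiquitin ligases and diacylglycerol kinases hold the same steps in check.

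Gfi1 itself gave 4260 units under the wild-type label and 18100 units under the knockout label. This is the opposite of what loss of the transcript would give if the probe lay in a deleted part, and no source used here gives the place of the probe, so libraries are named by their labels and every direction rests on them. Xist read 447 units under the wild-type label and 3.86 units under the knockout label, while the Y-linked Eif2s3y read 2.91 and 3870 units, so sex-linked readings and genotype label cannot be told apart as sources of a difference. None of the members lies on a sex chromosome in assembly GRCm38.p6. Differences below are log2 values, knockout label minus wild-type label, after each array was divided by its 75th percentile over probes (263 and 269 units), and signals are quoted in units before that scaling.

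At least 2-fold higher signals in the library labelled knockout were found for 3 of the 37 detected members, Cd247, Cd8a and Txk, beside 3.62% of all detected genes. No member was at least 2-fold lower, beside 1.52% of all genes. At 1.5-fold Cd8b1 joined the higher members, 4 in all beside 7.67% of all genes, and 0 members were lower beside 4.25%. By any size, 15 members were higher, beside 41.6% of all genes, and 22 were lower, beside 58.4%. The median over members was -0.05 and the median over all genes was also -0.05. With cyclic loess scaling, which moved the median of all genes to 0.01, the split of the members was 19 higher and 18 lower. The members as a whole therefore had nearly the same centre as all genes under both scalings, and the values below concern single genes and small groups.

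**Figure D1:**
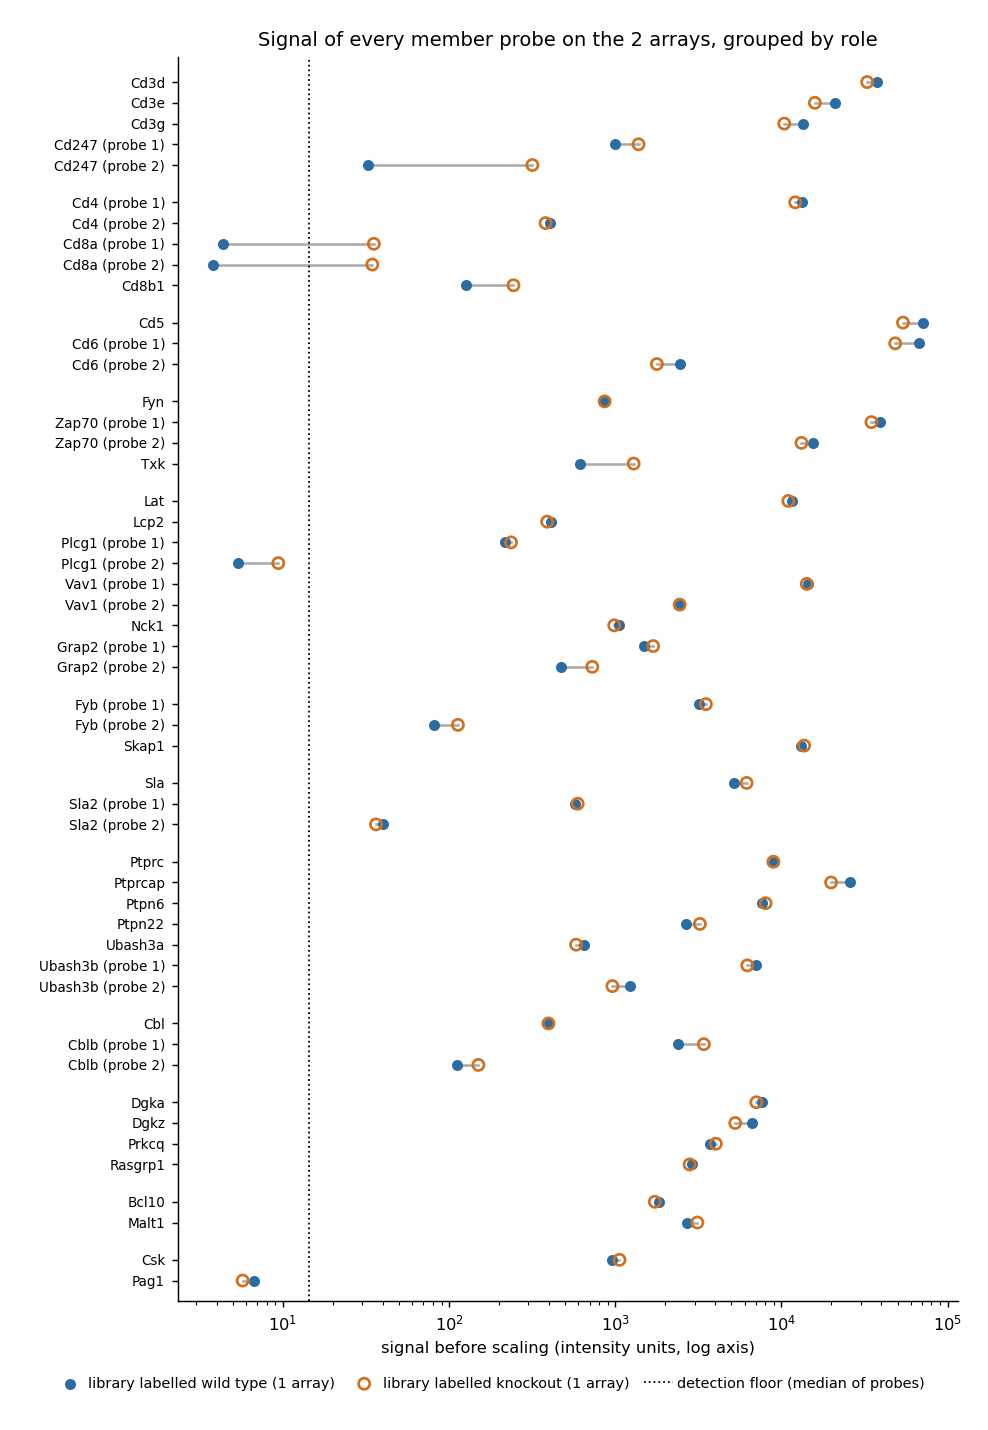
Signal of each of the 50 member probes in intensity units (log axis) on the array labelled wild type (filled) and the array labelled knockout (open), 1 array each, grouped by role; the dotted line is the detection floor. For most probes the points nearly touch, while Cd247 probe 2 and both Cd8a probes are far apart, with Cd8a below the floor under the wild-type label.

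The invariant CD3 chains were lower in the library labelled knockout, except for Cd247. Cd3e, whose CD3-ε chain pairs with both other CD3 chains, read 20900 units under the wild-type label and 15900 units under the knockout label, a difference of -0.43 (1.34-fold lower). Cd3g, encoding CD3-γ, read 13500 and 10400 units, a difference of -0.41. Cd3d, encoding CD3-δ, read 37500 and 32800 units, a difference of -0.23. Each of these genes was read by 1 probe on 1 spot, and for probes of this brightness the median SD over repeated spots was 0.04, which leaves out any variation between cultures. In bulk RNA, fewer cells of a type and less RNA per cell cannot be told apart.

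Cd247 encodes the CD3-ζ chain, which carries more signalling motifs than the other chains, and its probes disagreed in size. The first probe read 991 units under the wild-type label and 1380 units under the knockout label, a difference of 0.45. The second read 32.5 and 317 units, a difference of 3.25 or 9.54-fold. Both probes were higher under the knockout label, but their mean of 1.85 has an SD of 1.99 over the 2 probes and stands for neither. The second probe is annotated to a transcript accession that the RefSeq gene table of GRCm38.p6 does not list, and it lies on a spot of feature number 61277. Without spots of feature number above 50000 Cd247 stood at 0.44, and Cd8a and Txk were the 2 members left past 2-fold, of 32 detected, beside 3.12% of all genes.

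Spots of high feature number were less steady on these arrays, as probes printed on 10 spots show. In the library labelled wild type 20 of 813 such spots above feature number 50000 (2.46%) read over 4-fold above their probe's median, against 6 of 3177 at lower numbers. In the library labelled knockout 15 of 813 did so, against 3 of 3177. At these numbers 0 spots of either library read over 4-fold below their probe's median. Cd3g, Cd5, Fyn, Prkcq and Rasgrp1 are read on such spots alone, so these 5 genes have no value without them, while Cd3d, Cd3e, Cd6, Txk and Cd8b1 are read on spots of lower number. Whether the position of a spot bears on the second Cd247 probe, Cd3g or Cd5 was not tested.

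The co-receptor genes parted in direction. Cd4, whose product binds MHC class II together with the receptor and defines these cells, had a probe of 13300 units under the wild-type label and 12100 units under the knockout label, a difference of -0.17. Its other probe, printed on 10 spots, read between 384 and 437 units (median 399.5) under the wild-type label and between 361 and 408 units (median 375) under the knockout label. These spot ranges overlap, and 9 of the 10 spots gave a lower value under the knockout label, with a mean of -0.12 and an SD over spots of 0.06.

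Cd8a, the α chain of the co-receptor for MHC class I, lay below the floor under the wild-type label and above it under the knockout label. Its single-spot probe read 3.81 and 34.5 units. Its other probe read 2.69 to 70.8 units (median 3.32) over 10 spots under the wild-type label and 30 to 46.2 units (median 34.1) under the knockout label. The reading of 70.8 units came from the 1 of these spots with a feature number above 50000, while the other 9 lay between 2.69 and 3.59 units, so the ranges did not overlap without it. Cd8a is therefore given as at least 2.40-fold higher, a bound set by the floor. Cd8b1, its partner chain and neighbour on chromosome 6, read 127 and 244 units, a difference of 0.91.

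**Figure D2:**
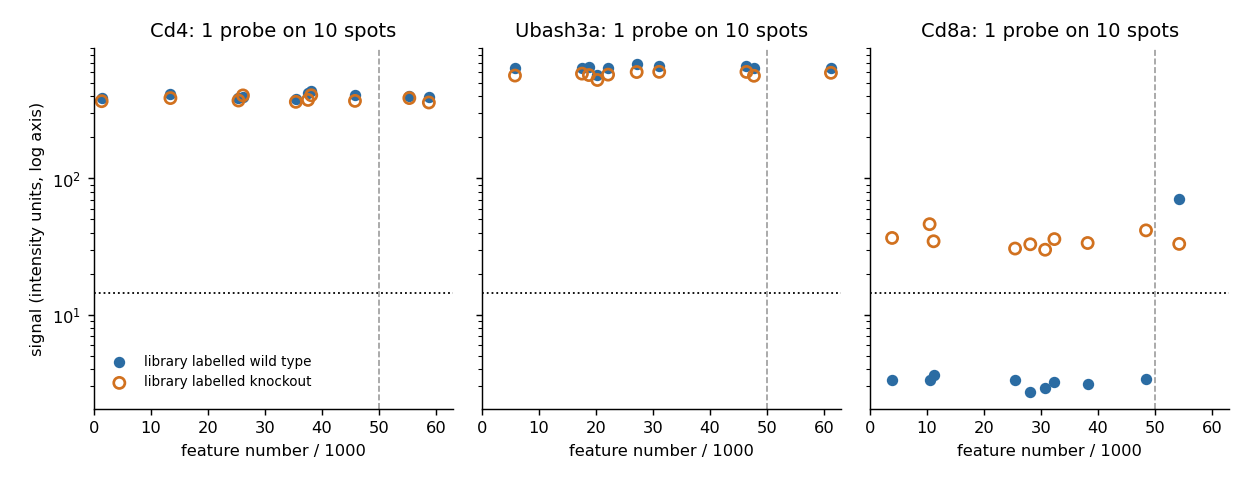
Signal (intensity units, log axis) of the 3 member probes printed on 10 spots, plotted by feature number, for the array labelled wild type (filled) and the array labelled knockout (open); dotted line, detection floor; dashed line, feature number 50000. The arrays lie close together at every spot of Cd4 and Ubash3a, and 1 Cd8a spot beyond the dashed line stands at 70.8 units under the wild-type label.

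The cell type marker lists were chosen with earlier results of these data known, so their counts and shares are descriptive only. Other genes listed as markers of CD8 T and natural killer cells were measured beside Cd8a and Cd8b1. Of 15 such markers, counting these 2, 11 were detected under the wild-type label and 15 under the knockout label. The 4 detected under the knockout label alone could only count as higher. Of the 11 detected on both arrays 10 were higher, beside 40.7% of all genes detected on both, and 1, Cd160, was lower (-1.31). Over all 15 genes the summed signal was 2649 units under the wild-type label and 6097 units under the knockout label. Most of both sums came from Eomes (649 and 1843 units), Nkg7 (968 and 2076 units) and Prf1 (504 and 814 units). Klrk1, Klrb1c and Ncr1 lay below the floor under the wild-type label. Of 13 B cell markers with a probe, 11 were detected on both arrays, of which 9 were higher, and the summed signal was 624 and 1423 units. Blnk (30.6 and 386 units, 3.62), Ms4a1 (18.9 and 221 units, 3.52) and Fcer2a (31.1 and 142 units, 2.16) had the largest B cell differences. Cd79a stood at 0.41, and the 2 lower were Cd79b (281 and 256 units, -0.17) and Btk (-0.85). Pax5 lay below the floor on both arrays. For markers outside the members, no value is given here without spots of feature number above 50000.

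Erythroid markers had a summed signal of 36.1 and 172 units over 4 genes with a probe, and none was detected under the wild-type label. The 3 detected under the knockout label could therefore only count as higher. Klf1, 1 of these, read 9.68 and 16.1 units, at least 1.11-fold higher. Hbb-bt, a β-globin gene, read 12 and 115 units, at least 7.92-fold higher, and Hba-a1, an α-globin gene, 11.3 and 37.2 units, at least 2.56-fold higher, with Alas2 below the floor on both arrays. Myeloid markers summed to 45839 and 44498 units, nearly all of it from 1 gene, Csf3r. On its detected probe Mpeg1, a macrophage gene, read 11.7 and 335 units, at least 23.1-fold higher. Cd68 read 13.5 and 20.8 units, crossing the floor, and the detected probe of Adgre1 crossed it the other way, at 15.7 and 11 units. Lyz2, Cd14, S100a8 and S100a9 lay below the floor on both arrays. Of 13 myeloid markers 6 were detected on at least 1 array, with a median of -0.03. Of these, 3 were higher, beside 41.6% of all genes, and 3 lower, beside 58.4%. Csf1r stood at 0.01, Itgam at -0.07 and Csf3r at -0.08. The gamma-delta and natural killer T markers Zbtb16 and Sox13 stood at 0.11 and -0.09, and Blk was below the floor. The part of other cells in the Cd8a and Cd8b1 readings, and in the lower CD3 readings, was not tested.

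CD4 T cell markers were detected on both arrays in 11 of 11 cases, with a median of -0.21 and summed signals of 244563 and 236231 units. This list shares Cd4, Cd5 and 3 CD3 genes with the members. Outside them, Cd28 and Cd27 both stood at -0.21, and Cd2 (0.51), Icos (0.77), Thy1 (0.21) and Cd40lg (1.14) were higher, so the lower readings did not extend to every T cell surface gene.

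Cd5 and Cd6 were among the lowest members. Cd5, an inhibitory receptor that sits beside the T cell receptor, read 71000 units under the wild-type label and 53900 units under the knockout label, a difference of -0.43. Cd6, a related receptor that binds the adhesion molecule ALCAM, had a probe of 67700 and 48400 units and another of 2450 and 1780 units. The Cd6 probes gave -0.52 and -0.49, an SD of 0.02, although their signals lay far apart, and the mean of -0.51 was the lowest of all detected members. Cd5 and Cd6 are neighbours on chromosome 19, with 0 protein-coding genes between them in GRCm38.p6, and Cd3g, Cd3d and Cd3e adjoin one another on chromosome 9 in the same way.

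Start-site sequences are shown for the adjoining CD3 genes and Cd5, which were lower, and for Cd247, Txk and Cd8a, which were past 2-fold higher. For Cd247 this holds for the mean of 2 probes that disagree, and its brighter probe stood at 0.45. No sequence is shown for Cd6. Each sequence is the 250 bases before a RefSeq start site of GRCm38.p6, 5′ to 3′ on the gene's strand, and capitals mark AATC or its reverse complement GATT, the core of the GFI1 recognition sequence.
Cd3d, chr9:44981536-44981785, plus strand: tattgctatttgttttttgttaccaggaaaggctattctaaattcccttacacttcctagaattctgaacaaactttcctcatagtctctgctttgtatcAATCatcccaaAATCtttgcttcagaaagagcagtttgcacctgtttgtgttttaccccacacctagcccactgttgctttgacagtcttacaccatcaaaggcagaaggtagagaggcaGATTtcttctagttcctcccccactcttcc
Cd3e, chr9:45009612-45009861, minus strand: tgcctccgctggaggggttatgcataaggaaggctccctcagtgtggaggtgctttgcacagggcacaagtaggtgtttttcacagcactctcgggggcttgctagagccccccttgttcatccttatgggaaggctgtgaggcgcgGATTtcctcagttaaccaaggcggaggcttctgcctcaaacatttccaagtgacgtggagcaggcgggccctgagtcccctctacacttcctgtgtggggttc
Cd3g, chr9:44980432-44980681, minus strand: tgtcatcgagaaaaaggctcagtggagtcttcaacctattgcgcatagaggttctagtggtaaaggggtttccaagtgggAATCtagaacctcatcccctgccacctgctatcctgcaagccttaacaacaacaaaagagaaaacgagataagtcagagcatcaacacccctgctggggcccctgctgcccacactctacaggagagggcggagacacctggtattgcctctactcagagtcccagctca
Cd5, chr19:10738975-10739224, minus strand: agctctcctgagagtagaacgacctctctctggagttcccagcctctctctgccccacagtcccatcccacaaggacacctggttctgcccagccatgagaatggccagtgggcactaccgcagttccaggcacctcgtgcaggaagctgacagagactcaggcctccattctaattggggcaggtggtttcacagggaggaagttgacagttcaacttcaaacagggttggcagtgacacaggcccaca
Cd247, chr1:165788431-165788680, plus strand: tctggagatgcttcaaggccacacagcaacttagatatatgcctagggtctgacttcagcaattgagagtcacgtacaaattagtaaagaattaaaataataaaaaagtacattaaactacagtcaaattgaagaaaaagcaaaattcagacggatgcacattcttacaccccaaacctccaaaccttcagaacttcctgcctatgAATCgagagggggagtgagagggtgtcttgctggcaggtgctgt
Txk, chr5:72752778-72753027, minus strand: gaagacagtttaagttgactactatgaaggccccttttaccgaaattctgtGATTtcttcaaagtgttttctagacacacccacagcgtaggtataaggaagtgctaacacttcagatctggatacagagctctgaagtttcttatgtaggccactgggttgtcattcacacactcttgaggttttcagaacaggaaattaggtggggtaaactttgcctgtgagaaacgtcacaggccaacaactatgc
Cd8a, chr6:71373177-71373426, plus strand: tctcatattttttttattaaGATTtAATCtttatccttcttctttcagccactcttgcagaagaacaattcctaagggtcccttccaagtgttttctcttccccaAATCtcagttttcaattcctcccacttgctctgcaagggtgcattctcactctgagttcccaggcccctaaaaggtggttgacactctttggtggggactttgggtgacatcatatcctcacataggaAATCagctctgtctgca

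The GFI1 core letters occur 3 times in the Cd3d window, once each in those of Cd3e, Cd3g, Cd247 and Txk, 4 times in that of Cd8a and 0 times in that of Cd5. Over all 32851 windows of this length 69.0% hold them at least once, and among 31 member genes with a window 19 do (61.3%). The letters GGAAG of ETS factors, searched on both strands as CTTCC too, are in 64.1% of all windows and in 22 of the 31 member genes, and the RUNX letters TGTGGT or ACCACA are in 14.0% and in 2 of the 31. Matches of different motifs may share bases, and a match is a run of letters in this window and no more. For genes with several start sites in the table, Txk among them, the first one listed was used. The shares over all windows count windows and those of the members count genes, so they are not like for like.

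Among the tyrosine kinases, Txk stood apart from the others. Txk, a kinase of the TEC family, read 614 units under the wild-type label and 1290 units under the knockout label, a difference of 1.04 or 2.05-fold, on 1 probe of 1 spot. Zap70 read 39200 and 34800 units on one probe and 15400 and 13200 units on the other, with differences of -0.20 and -0.25. Fyn, a SRC family kinase like LCK, read 873 and 863 units, a difference of -0.05 that turned to 0.01 with cyclic loess. Csk, which phosphorylates the inhibitory tyrosine of SRC family kinases, read 961 and 1060 units (0.11). Pag1, its membrane anchor, was not detected at 6.67 and 5.72 units.

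The scaffold that ZAP-70 phosphorylates differed little between the arrays. Lat read 11600 and 11000 units (-0.11), Lcp2, which encodes SLP-76, 412 and 389 units (-0.12), and the adaptor gene Nck1 1050 and 986 units (-0.12). Vav1, an exchange factor for RAC, had probes of 14400 and 14200 units and of 2450 and 2440 units, with a mean of -0.05 and an SD of 0.01 over probes, which turned to 0.01 with cyclic loess. Plcg1, the phospholipase gene, read 218 and 236 units (0.08) on one probe, and its other probe lay below the floor on both arrays. Grap2, encoding the GADS adaptor that joins SLP-76 to LAT, was the highest of these 6 genes at 0.38, but its probes gave 0.60 and 0.16, an SD of 0.31.

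Adaptors that lead from the receptor to integrins were near 0 or above it. Skap1 read 13100 and 13700 units (0.03). Fyb, which encodes ADAP, had a probe of 3190 and 3510 units (0.11) and a dimmer one of 81.2 and 113 units (0.44). The SRC-like adaptors, which together with CBL lower the amount of receptor, did not move together: Sla read 5180 and 6170 units (0.22), and the probes of Sla2 gave 0.03 and -0.17.

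**Figure D3:**
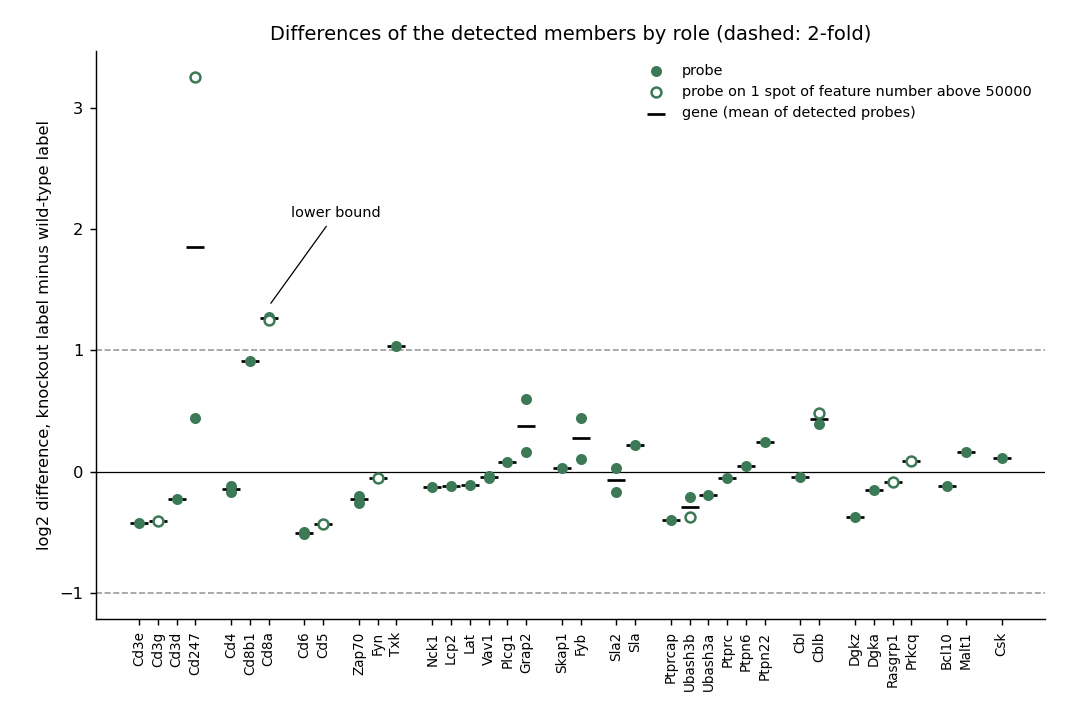
Log2 difference, knockout label minus wild-type label, of each detected member probe (points; open where the probe is on 1 spot of feature number above 50000) and of each gene as the mean of its detected probes (bars), grouped by role with dashed lines at 2-fold. Cd247, Cd8a and Txk lie past the upper line, no gene lies past the lower one, and the probes of Cd247 are the farthest apart.

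Tyrosine phosphatases and their partners ranged from -0.40 to 0.25. Ptprc, which encodes CD45, read 9050 and 8940 units, a difference of -0.05 that turned to 0.0061 with cyclic loess. Ptprcap, whose product binds CD45, was lower at 25700 and 19900 units (-0.40, 1.32-fold), so the pair did not move together. Ptpn6, the gene of SHP-1, stood at 0.04, and Ptpn22, whose product removes the activating phosphate of LCK, read 2660 and 3230 units (0.25).

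The STS phosphatases, which act on ZAP-70, were both lower. Ubash3a was read on 10 spots, from 577 to 686 units (median 649) under the wild-type label and from 528 to 606 units (median 583) under the knockout label. All 10 spots gave a lower value under the knockout label, with a mean of -0.19 and an SD over spots of 0.03, although the ranges of signals overlap. The Ubash3b probes gave -0.21 and -0.38. These are spots of 1 pair of arrays and not repeats of a culture.

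The ubiquitin ligases parted. Cblb, a brake on activation without CD28 help, had probes of 2380 and 3410 units and of 112 and 150 units, with differences of 0.49 and 0.39 (mean 0.44, SD 0.07). Cbl read 400 and 396 units, a difference of -0.05 that turned to 0.02 with cyclic loess.

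In the diacylglycerol branch, Dgkz, a kinase that consumes diacylglycerol, read 6680 and 5270 units (-0.37), and Dgka, the other such kinase, 7670 and 7060 units (-0.15). Of the genes whose proteins bind diacylglycerol, Prkcq, encoding PKC-θ, stood at 0.09 and Rasgrp1, which encodes an exchange factor for RAS, at -0.09. Downstream of PKC-θ, Bcl10 stood at -0.12 and Malt1 at 0.17, both members of the complex that leads to NF-κB.

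Because bright probes vary less between these arrays than dim ones, members were also set beside genes of like signal, a comparison chosen after their values were seen. Of the 1149 genes with a mean signal of 10000 units or more, 69.3% were lower under the knockout label and 5.05% lay below their 5th percentile of -0.29. Of the 9 members in this class 8 were lower, and 5 lay below that percentile, namely Cd6, Cd5, Cd3e, Cd3g and Ptprcap. Among the 12 members of 2000 to 10000 units, Dgkz alone lay below the 5th percentile of its class (-0.34). Among the 9 members of 500 to 2000 units 0 lay below theirs and Txk lay above the 95th percentile (0.55). In the dimmer classes Cd247 lay above the 95th percentile of genes of 50 to 500 units (0.97), on its probes that disagree, and Cd8a, as a bound, just above that of genes under 50 units (1.26). Across the 36 members detected on both arrays the difference went with signal (Pearson r -0.55, Spearman rho -0.59). Over the 12507 genes detected on both the values were -0.06 and -0.05. These 36 members include Cd247 at the mean of its probes that disagree, and values without it are not given here. Over all 37 detected members the values were -0.63 and -0.62, against -0.06 by both measures over all 13411 genes. The member added is Cd8a, which is dim and was detected under the knockout label alone. Its difference could only be higher and is set by the floor, so nothing is read from the larger values. Genes of 1 pair of arrays are not independent, and they share scaling and background. With cyclic loess, Cd6 stood at -0.45, Cd5 at -0.38, Cd3e at -0.37, Cd3g and Ptprcap at -0.35. Its curve of difference against signal was fitted over all probes with a span of 0.3, which is wide beside the brightest class. Whether a trend confined to the brightest probes remained was not tested.

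**Figure D4:**
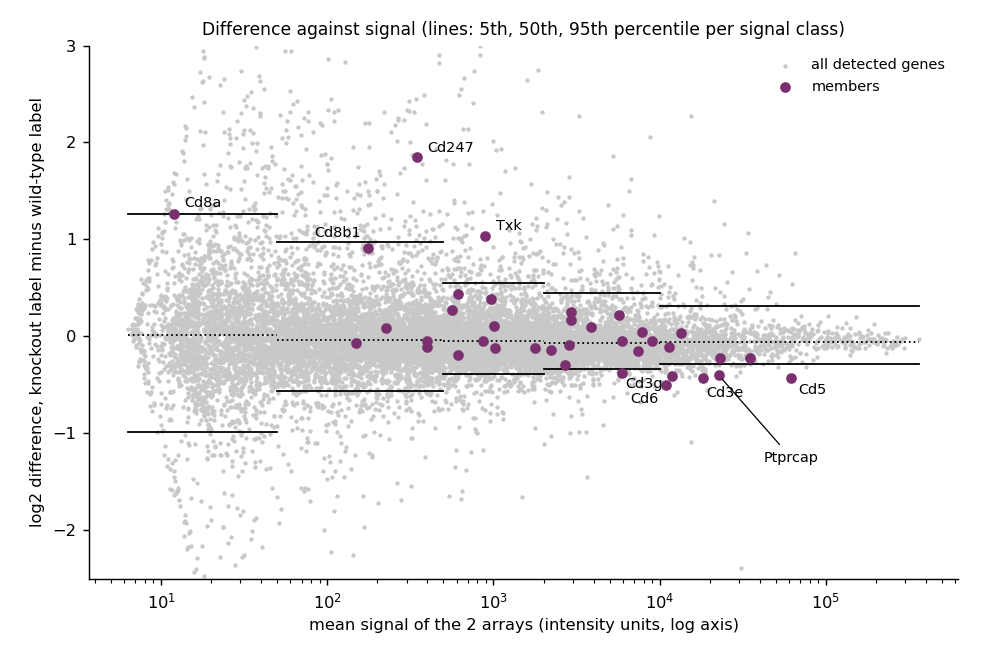
Log2 difference, knockout label minus wild-type label, against the mean signal of both arrays (intensity units, log axis) for all detected genes (grey) and the members (purple), with the 5th, 50th and 95th percentile of each signal class as lines; 35 genes above 3 and 23 below -2.5 are off the axis. Cd6, Cd5, Cd3e, Cd3g and Ptprcap lie under the lower line of the brightest class, and Txk, Cd247 (the mean of probes that disagree) and Cd8a (a bound) lie above the upper line of their own.

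Other genes of the pathway were taken from a list of 111, chosen with earlier results of these data known. Of these, 103 had a probe and 100 were detected. Past 2-fold, 0 of these were higher and 0 lower, beside 3.62% and 1.52% of all genes, and by any size 57 were higher and 43 lower, beside 41.6% and 58.4% of all genes, with a median of 0.03. At 1.5-fold 6 were higher, beside 7.67% of all genes. The highest were Nedd4, a ubiquitin ligase (53.8 and 103 units, 0.90), Tnfaip3, which encodes the NF-κB inhibitor A20 (1920 and 3550 units, 0.85), Trat1, a receptor-associated transmembrane adaptor (2220 and 3800 units, 0.74), and Themis, an adaptor known from thymocytes (196 and 321 units, 0.68). The lowest were Arhgef7 (-0.53, SD 0.66 over 2 probes), the calcium channel gene Orai2 (431 and 334 units, -0.40), Grap, an adaptor related to GRB2 (9320 and 7460 units, -0.35), and Ptpn7, a phosphatase of MAP kinases (793 and 659 units, -0.30). The calcineurin genes Ppp3ca and Ppp3cb stood at -0.05 and 0.03, and the calcium sensor gene Stim1 at -0.23.

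**Figure D5:**
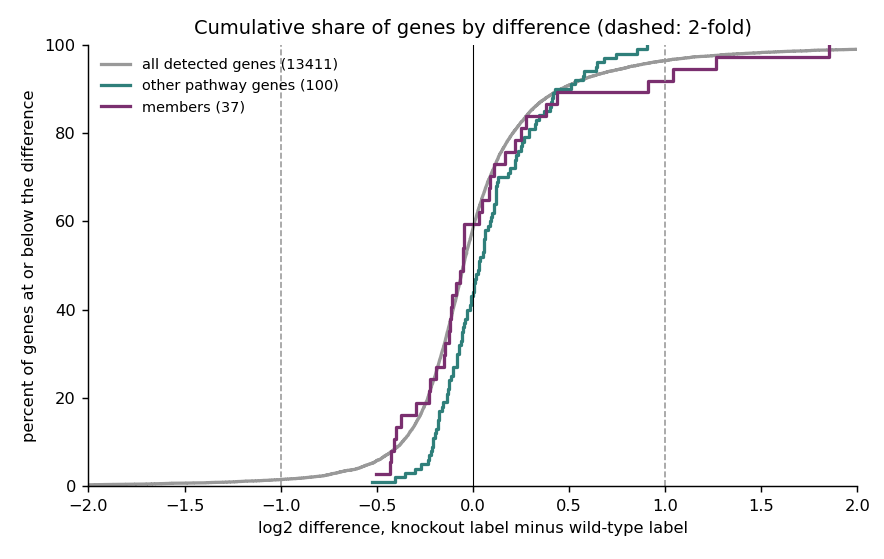
Percent of genes at or below a given log2 difference, knockout label minus wild-type label, for the 37 detected members, the 100 detected other pathway genes and all 13411 detected genes, with dashed lines at 2-fold; 137 genes above 2 and 46 below -2 are off the axis. The curves for members and all genes cross 0 at nearly the same height, and the curve of the other pathway genes stays within the dashed lines.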

How the data were processed

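RNA (100 ng per array, per the labels' protocols) of 2 cultures was measured on one-colour arrays, 1 per genotype label, processed with Agilent Feature Extraction 11.5.1.1 per the submitters' processing notes. The authors deposited an intensity per spot under a column headed Raw, on a linear scale; no source used here gives its background correction. A second deposited table of intensity per feature number, a multiple of the first (median ratio 2.27 and 2.26; column medians 34.4 and 34.8; the origin of the multiple stays unknown), was an alternative.

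Spots of a probe were averaged as log2 signals, from which the array's 75th percentile was subtracted. Signals at or below an array's median over probes (14.2 and 14.6 units) were set to that floor, and a gene is the mean of its probes detected on at least 1 array. Symbols came from the platform annotation, updated through a RefSeq table of GRCm38.p6, which altered no member. Genes were counted at 2-fold, without a test; the precision is limited by the number of arrays. Named were all members, Gfi1, marker lists, and other pathway genes past 2-fold or among the 4 largest each way. Xist, Eif2s3y, Cd2, Cd27, Cd28, Icos, Thy1, Cd40lg, Cd160, Csf3r, Blnk, Ms4a1, Fcer2a, Hbb-bt, Hba-a1, Mpeg1, Cd68, Stim1, Ppp3ca and Ppp3cb were chosen after their values were seen. So were Adgre1, Csf1r, Itgam, Cd79a, Cd79b, Btk, Eomes, Nkg7, Prf1 and Klf1. Members and lists were chosen with earlier results of these data known. Alternatives covered scaling, floor, offset, probe choice, fold and late spots; the median over spots was added after seeing the data. The steps were tested on simulated data, with known folds put only into genes detected on both arrays. Their noise came from repeated spots and held no variation between cultures, and no gene crossing the floor was given a known fold. Promoters are RefSeq's; no protein sequences were used here. Software was Python 3.11.15 (matplotlib 3.10.9, statsmodels 0.14.6, pandas 2.3.3, numpy 2.4.6).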

Additional observations from a re-analysis of the deposited data

How the results depend on the processing

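The count of 3 members at least 2-fold higher became 1 (Txk) with the floor at the 75th percentile. It was 2 with probes detected on both arrays, with the brightest probe per gene, with an offset of 16 units and without spots above feature number 50000, and 3 under the other alternatives at 2-fold. The count of members at least 2-fold lower was 0 under every alternative run. The median over members moved to 0.0061 with cyclic loess, and that of all genes to 0.01. Of the 37 detected members 32 kept their direction under every alternative that gave a value, and Fyn, Vav1, Ptprc, Cbl and Sla2 crossed 0. Other pathway genes at least 2-fold lower numbered 1 with the floor at the 25th percentile, and 6 were higher at 1.5-fold. Over all genes, 485 were higher and 204 lower at 2-fold; these counts were 980 and 634 under a 25th percentile floor, 136 and 20 under a 75th percentile floor, and 1029 and 570 at 1.5-fold. The lower count was 125 with probes detected on both arrays, 117 with the offset and 105 without spots above feature number 50000. Cd8a stood at 3.06 under the lower floor and at 0.72 with the offset. A floor changes which probes are tested; other causes were not tested. No paired analysis was possible because each group has 1 array. Dim probes limit Cd8a and Pag1, which lie at or under the floor on at least 1 array.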
